A study of Mus musculus with 14 samples.

Results

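Cultured mouse CD4 T cells were compared after stimulation with antibodies to CD3 and CD28 (3 libraries) and in medium alone (2 libraries), 5 of the 14 RNA sequencing libraries of a study on TRAIL, the death receptor ligand, in T cell activation. The CD3/CD28 group and the medium group were both labelled as primary CD4 T cells from lymph node of wild type C57BL/6 mice, held in RPMI. The antibodies were at 1 mg/ml as labelled, and culture time, sex, age and the method of isolation are not given in the sources used here. No label says that the libraries of a group came from separate cultures or animals, so the tests rest on the spread among these libraries, which may be technical. Levels are given as TPM, transcript abundances corrected for gene length and scaled to the same total in every library, and the genes described are the 14035 of 20875 listed genes with a mean of at least 1 TPM over the 8 culture libraries, which include 3 of cells given the antibodies with TRAIL.

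A CD4 T cell is switched on through the antigen receptor with its CD3 chains and through the costimulatory receptor CD28, and antibodies to both stand in for an antigen-presenting cell. The receptor passes the signal through the kinases LCK and ZAP70 to calcium with NFAT, to the MAP kinases with AP-1, and to NF-kB. These factors induce a first wave of regulators, then cytokines and their receptors. A resting cell is small and held quiet by FOXO and KLF factors, and an activated one turns to aerobic glycolysis, takes up amino acids, builds ribosomes and enters the cell cycle.

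The libraries held 32.3, 32.3 and 27.6 M reads in the stimulated group and 29.5 and 26.3 M in medium, recovered from TPM and gene length. Stimulated replicate 1 stood apart from the other 2 stimulated libraries. Its median squared differences from them were 20.2 and 18 times those of counting noise. The same ratio was 1.89 between stimulated replicates 2 and 3 and 2.91 between the medium libraries. The long protein-coding genes of stimulated replicate 1 (the longest of 3 equal groups) were lower than in replicates 2 and 3. The median log2 difference was -0.37, and ribosomal protein genes were higher by 0.44. Named genes whose call changes without stimulated replicate 1 are given with both calls.

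Each gene was tested with limma on log2(TPM + 1), with adjustment over all 14035 genes and a threshold of 0.05. Stimulation raised 27.5% of them (3857) and lowered 49.0% (6884), with a median log2 fold change of -0.32. Scaling the libraries by the median of ratios moved that median to 0.04 and the split to 39.7% raised and 35.8% lowered, so a change is stated relative to the total of each library and small falls depend on the scaling. Without stimulated replicate 1, 30.6% were raised and 50.6% lowered. In that fit 10573 genes were called in the same direction, 168 calls were lost, 819 were gained and 0 turned round. The test is two-sided, and a gene is called where its adjusted p is under 0.05. Log2 fold changes are given ± standard error. Counts for a list are to be read against the shares of all genes in the same fit. Scaling also gave calls to 1667 genes that had none, so a gene not called is not shown to be unchanged.

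**Figure D1:**
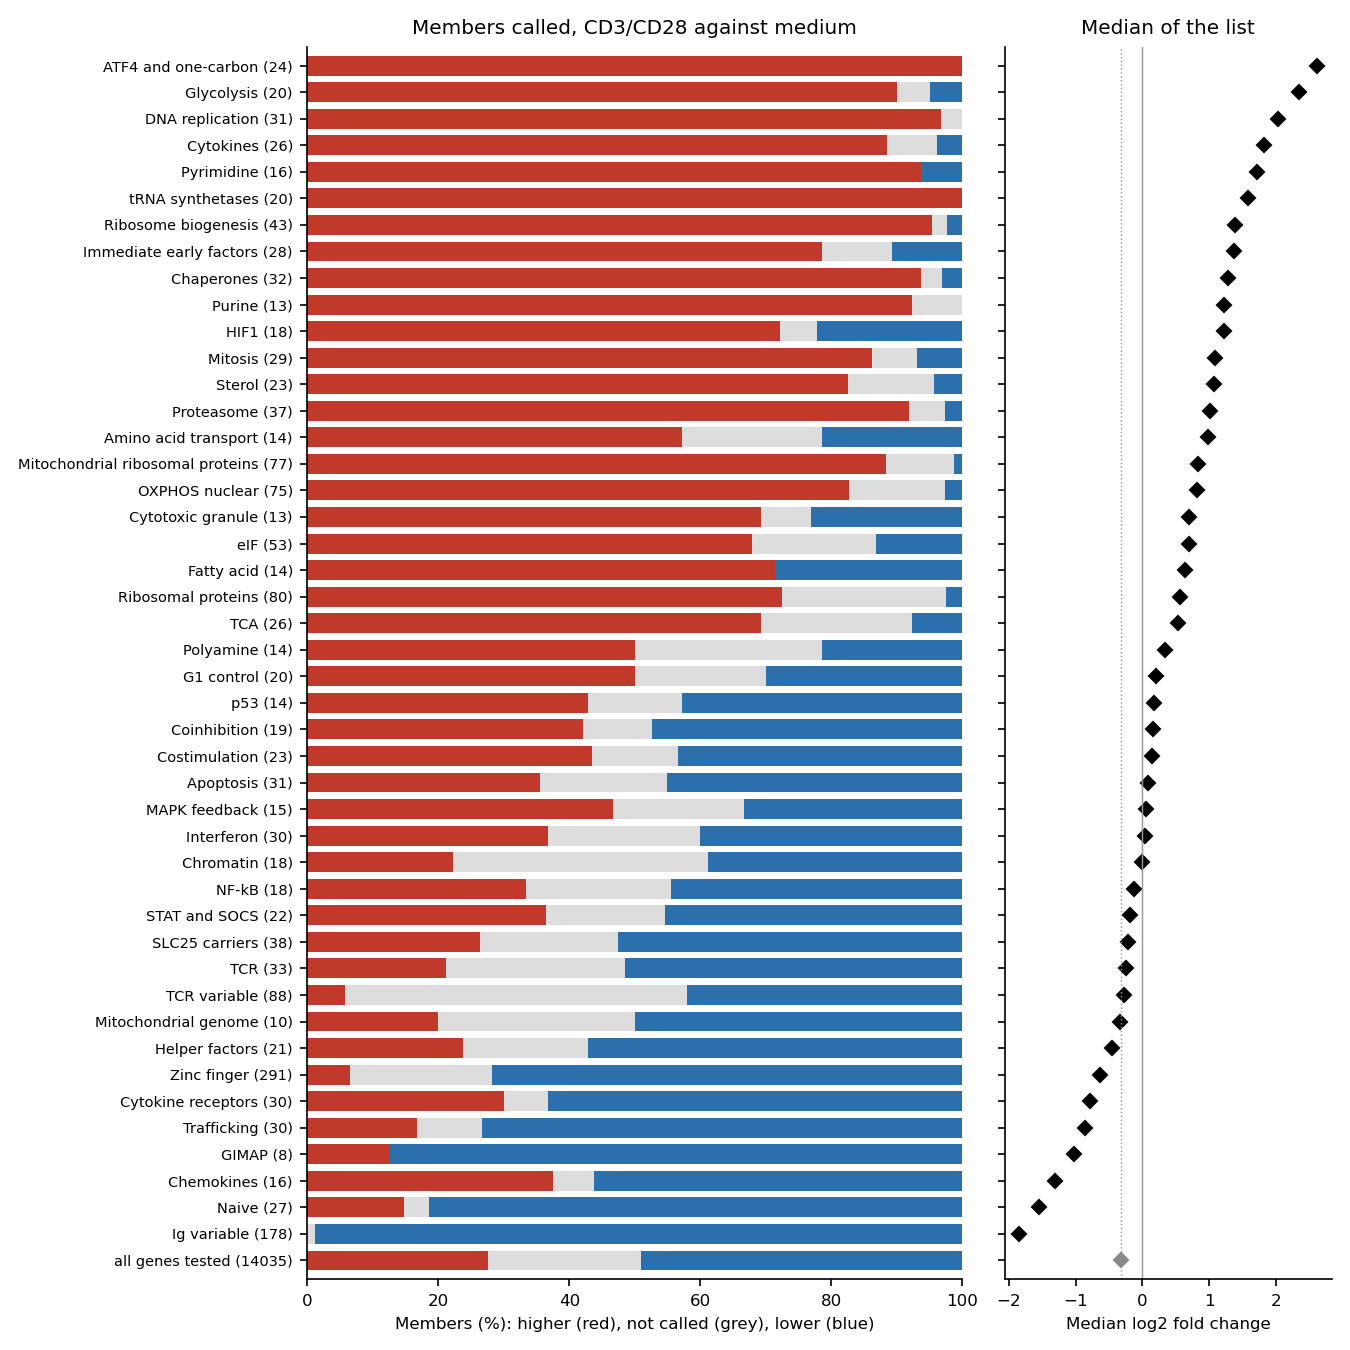
Left: members of each gene list called higher (red), not called (grey) or called lower (blue) after CD3/CD28 stimulation against medium, as % of the tested members (number in brackets), with all genes tested at the bottom. Right: the median log2 fold change of each list, with a solid line at 0 and a dotted line at the median of all genes, -0.32; lists run from the ATF4 and one-carbon genes (median 2.62) to the immunoglobulin variable genes (-1.84).

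Markers set the frame for every list that follows. The 15 markers of CD4 T cells summed to 6430 to 6634 TPM in stimulated libraries and to 6513 to 6516 TPM in medium. The sums hid moves in both directions, 4 members up, 8 down and 3 not called, from Thy1 (1.11) and Cd2 (0.99) to Trbc2 (-0.77, not called with scaling) and Cd4 (-1.08), and with scaling 7 were up and 1 was down. These markers of the labelled cell type were thus abundant in both groups, and their sum does not measure the amount of T cells. RNA of other cells was present as well, and most of it was lower after stimulation. All 15 B cell markers fell, and their sum was 792 to 886 TPM in stimulated libraries against 4087 to 4111 TPM in medium. All 15 tested macrophage markers fell (sum 47.4 to 53.5 against 1249 to 1342 TPM), as did all 6 markers of the red pulp macrophages of spleen (59.2 to 64.1 against 646 to 710 TPM). The same held for all 13 tested neutrophil markers (33.9 to 48.3 against 336 to 366 TPM) and all 7 tested erythroid and platelet markers (13.5 to 19.1 against 141 to 151 TPM). A low marker passes the filter only through libraries where it is high, which favours such falls. Of the low markers left untested in these lists, Ly6g (0.535, 0.377 and 0.611 against 0.183 and 0.101 TPM) lay above medium. Klf1 (1.16, 0.728 and 0.674 against 0.177 and 0.486 TPM) did so too. Cd163 and Alas2 lay below medium, and Gp9 overlapped it. Retnlg, a neutrophil gene, was listed at 0 in every stimulated library, and no marker of these lists was at 0 in medium. The part of these cells in the falls of genes that they share with T cells was not tested. In bulk libraries fewer cells of a type and less RNA per cell cannot be told apart. Red pulp macrophages belong to spleen, whereas the labelled tissue is lymph node. Among 11 markers of CD8 T and NK cells 2 rose, 7 fell and 2 were not called, and with scaling 3 rose and 5 fell. Cd8a rose (40.0, 44.0 and 42.9 TPM against 29.0 and 28.3 TPM, 0.54 ± 0.070), as did Eomes (0.24). Cd8b1, the partner chain of Cd8a, was not called (-0.11) and was called higher with scaling (0.28).

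**Figure D2:**
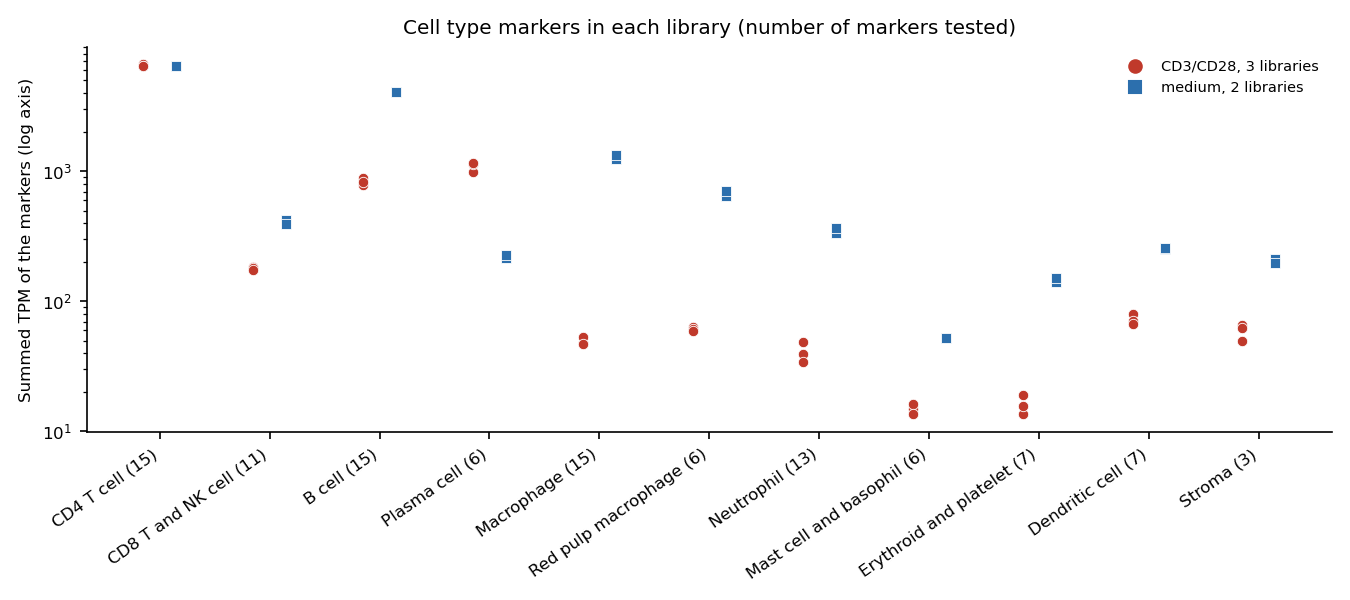
Summed TPM (log axis) of the tested markers of 11 cell types in each CD3/CD28 library (red circles, n = 3) and each medium library (blue squares, n = 2). The CD4 T cell sums lie at the same height in both groups, the macrophage sums of 47.4 to 53.5 TPM lie far under the 1249 to 1342 TPM of medium, and the plasma cell sum is high after stimulation through Irf4 and Xbp1, which activated T cells also use.

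Genes of the T cell receptor machinery had no common direction. Of 33 genes of the receptor, its kinases and adaptors, 7 rose, 17 fell and 9 were not called. Over all tested genes 27.5% rose and 49.0% fell. The median log2 fold change of the list was -0.24, against -0.32 over all genes. With scaling 13 rose and 11 fell, and without stimulated replicate 1, 11 rose and 20 fell. Falls that held with scaling included signalling genes downstream of the receptor. Rasgrp1, the exchange factor that turns on RAS, had 72.2, 98.0 and 91.4 TPM in stimulated libraries, against 318 and 292 TPM in medium (-1.81 ± 0.12, adjusted p = 3.64e-06). Every stimulated library lay below both medium libraries, and stimulated replicate 1 was the lowest. Prkcq, the protein kinase C of the T cell synapse, fell by 1.39 on the log2 scale, and Nfatc3, an NFAT factor, by 1.52. The adaptor gene Pag1 (-1.90) and the ubiquitin ligase gene Cbl (-1.5), both of negative regulators, fell, while Cd5 and Cd6, which can also restrain the receptor, rose.

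Several genes of the receptor chains fell, and with scaling those of Trbc2, Trbc1, Cd3d, Cd3g and Cd3e were not called. Trbc2, a constant region of the beta chain, had 687, 462 and 377 TPM in stimulated libraries, against 840 and 847 TPM in medium (-0.77, or -1.01 without stimulated replicate 1). Trbc1 (-0.53) and Cd3d (-0.43), chosen after their values were seen, and Cd3g (-0.59) fell as well. Cd247, the zeta chain, was not called (-0.12) and was called higher with scaling (0.28). Cd3e had 368, 385 and 384 TPM in stimulated libraries, against 541 and 514 TPM in medium (-0.48 ± 0.059), and the kinase gene Lck 367, 381 and 377 TPM against 431 and 449 TPM (-0.23 ± 0.054). Both falls passed the test, and neither passed with scaling (-0.08 and 0.17). The coreceptor gene Cd4 fell further, to 259, 359 and 360 TPM in stimulated libraries, against 689 and 676 TPM in medium (-1.08 ± 0.13). The 7 genes that rose were Malt1, the protease of the NF-kB arm, the adhesion receptor gene Cd2, Cd6, Cd5, the adaptor gene Lcp2, Zap70 and Cd28, by 0.26 to 0.99. Malt1 had 248, 390 and 404 TPM against 173 and 168 TPM, with stimulated replicate 1 the lowest of the stimulated libraries and all of them above medium. Cblb, a ligase that restrains activation without CD28, was not called (0.47) and rose without stimulated replicate 1 (0.71) and with scaling (0.87).

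The first wave of transcription factors was high. Of 28 immediate early and inducible factors 22 rose, 3 fell and 3 were not called (median 1.37). Irf4, which sets the strength of T cell activation, had 554, 741 and 774 TPM in stimulated libraries, against 44.7 and 46.2 TPM in medium (3.88 ± 0.13, adjusted p = 1.18e-07). Fosl1, an AP-1 subunit, had 22.8, 29.3 and 27.4 TPM against 1.54 and 1.76 TPM (3.37 ± 0.12). Nr4a1, the orphan nuclear receptor used as a reporter of receptor signalling, had 209, 241 and 210 TPM against 36.0 and 36.6 TPM (2.56 ± 0.083). In all 3 genes the groups were far apart. Its relative Nr4a3 rose by 3.12. Nfil3 (2.98) and Atf3 (2.67), basic leucine zipper factors, rose as well, and Myc had 578, 659 and 620 TPM against 117 and 139 TPM.

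Fos, the founding AP-1 gene and one of the fastest to be induced and shut off, went the other way. Fos had 13.2, 11.4 and 7.77 TPM in stimulated libraries, against 25.5 and 19.8 TPM in medium (-1.02 ± 0.21, adjusted p = 0.00208). Fosb was low (1.11, 1.33 and 1.18 against 2.79 and 1.30 TPM) and was not called, nor were Jund (0.32) and Ier3 (0.05). Jund was called higher with scaling (0.71). Ier5 fell by 0.53 and was not called with scaling. Tox, a factor of exhausted and developing T cells, fell to 5.19, 6.82 and 7.01 TPM in stimulated libraries, against 26.0 and 27.9 TPM in medium. In the 250 bases before to 50 after the start, on either strand, the AP-1 motif TGANTCA was in 0 of 20 immediate early genes with a RefSeq promoter and in 4 of 23 cytokine genes (17.4%), against 6.1% of tested genes. The CRE motif TGACGTCA was in 1 of 20 (5%) and 0 of 23, against 3.62%.

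NF-kB genes had no common direction. Among 18 genes 6 rose, 8 fell and 4 were not called, against 27.5% raised and 49.0% lowered among all tested genes. With scaling 10 rose and 4 fell. The 6 that rose were the precursors Nfkb1 (0.89) and Nfkb2 (0.96) and the IkB family genes Nfkbib (1.20), Bcl3 (0.72), Nfkbia (0.43) and Nfkbid (0.42). Rel, which encodes the subunit c-REL, had 24.5, 35.8 and 33.7 TPM in stimulated libraries, against 71.7 and 66.9 TPM in medium (-1.14 ± 0.14). The IkB kinase genes Ikbkb (-1.47) and Ikbkg (-1.07) fell, and Ikbkb and Rel lay below medium in every stimulated library. Rela, Relb, Tnfaip3 and Birc3 were not called; with scaling all 4 were called higher. Without stimulated replicate 1 Rela was called higher (0.18) and Birc3 lower (-0.10). The feedback genes of MAP kinases also divided, 7 up, 5 down and 3 not called of 15, and with scaling 10 up and 4 down. Spry1, an inhibitor of RAS signalling, had 48.8, 47.5 and 41.6 TPM against 2.85 and 3.14 TPM (3.55 ± 0.10). The nuclear phosphatases Dusp5 (2.31) and Dusp4 (1.69) rose, whereas Dusp1, the immediate early phosphatase, fell to 20.2, 19.1 and 19.7 TPM in stimulated libraries, against 48.0 and 49.5 TPM in medium (-1.26 ± 0.080).

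**Figure D3:**
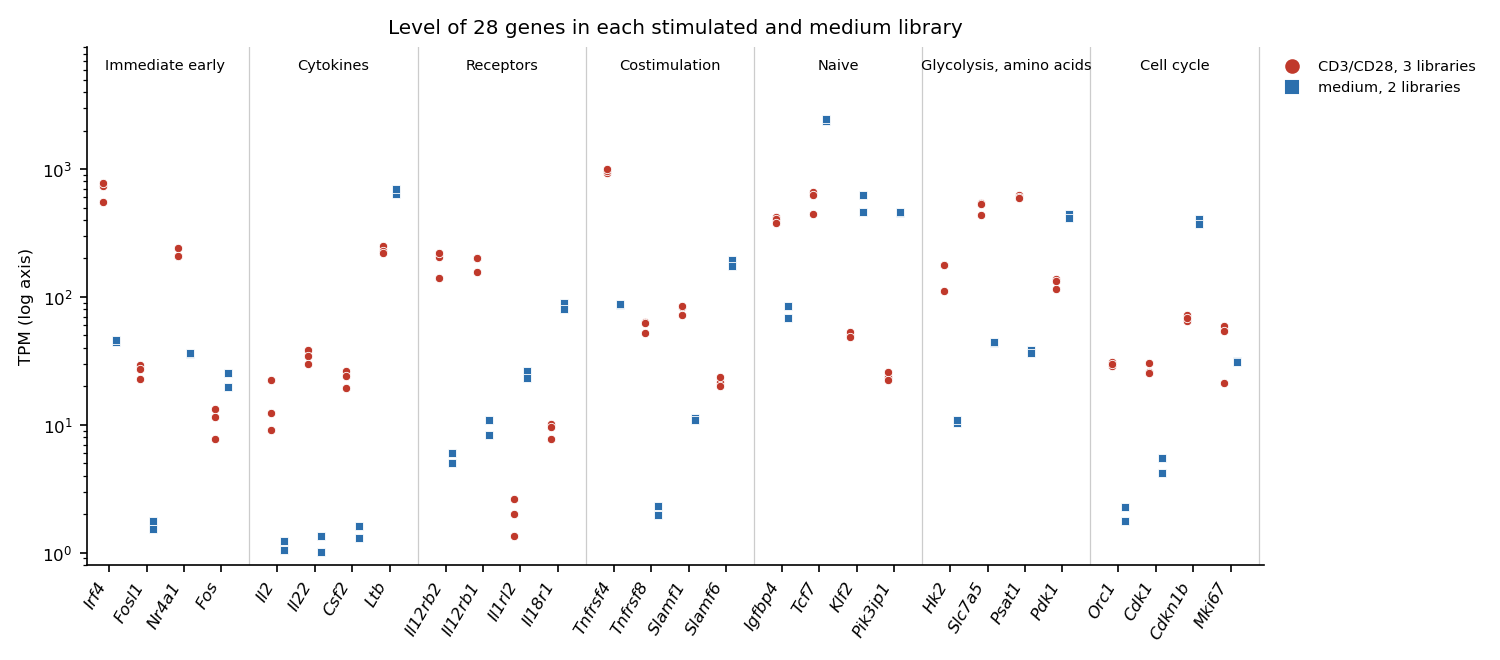
TPM (log axis) of 28 genes in each CD3/CD28 library (red circles, n = 3) and each medium library (blue squares, n = 2), grouped by role. In 27 of them every stimulated library lies on one side of both medium libraries (all tested genes: 30.5% above and 54.0% below). In Mki67 stimulated replicate 1 (21.4 TPM) lies below medium (31.3 and 30.8 TPM), while replicates 2 and 3 (58.7 and 54.4 TPM) lie above it.

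Cytokine genes of several helper lineages rose in the same libraries. Of 26 tested, 23 rose, 1 fell and 2 were not called (median 1.82), and 24 had all stimulated libraries above all medium libraries, which 30.5% of all tested genes also had. Beside Il21, the largest rise of all genes, Lif, an interleukin 6 family cytokine, had 101, 117 and 112 TPM in stimulated libraries, against 1.66 and 2.04 TPM in medium (5.29 ± 0.10). The type 2 cytokine Il13 had 44.8, 49.2 and 42.7 TPM against 0.393 and 0.186 TPM, and Il4 34.6, 28.3 and 23.8 TPM against 2.03 and 4.08 TPM (2.91 ± 0.23). Ifng of type 1 cells had 99.2, 70.8 and 65.3 TPM against 2.25 and 2 TPM, and Il22 of type 17 and 22 cells 38.7, 34.8 and 30.0 TPM against 1.34 and 1.01 TPM (4.03 ± 0.26). Csf2, which encodes GM-CSF, rose by 3.30. Type 1, type 2 and type 22 cytokines were thus high together, and a bulk library does not say whether in the same cells.

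Il2, the autocrine growth factor of T cells, was raised at a lower level than these. Il2 had 22.2, 12.3 and 9.03 TPM in stimulated libraries, against 1.24 and 1.04 TPM in medium (2.77 ± 0.34, adjusted p = 1.10e-04), with the highest value in stimulated replicate 1. Il10, an anti-inflammatory cytokine, had 18.4, 17.5 and 16.8 TPM against 3.98 and 3.64 TPM. Tnf had 41.8, 39.1 and 29.5 TPM against 19.6 and 20.3 TPM (0.84 ± 0.14). Ltb, a lymphotoxin subunit, was the 1 cytokine that fell, to 251, 228 and 219 TPM in stimulated libraries, against 639 and 692 TPM in medium (-1.52 ± 0.074). Its partner gene Lta, outside the naming rule and chosen after its values were seen, rose by 2.16. Il17f and Tnfsf11 were not called, and Il17f was called higher with scaling (0.76).

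Chemokines changed in both directions. Of 16 tested 6 rose, 9 fell and 1 was not called, also with scaling. Among all tested genes 27.5% rose and 49.0% fell, or 39.7% and 35.8% with scaling. Ccl3 (2.03) and Ccl4 (2.86), chemokines of activated lymphocytes, rose, and so did Xcl1 (0.76), Cxcl9 (2.46), Cxcl10 (2.91) and Ccl24 (4.42). Ccl24, an eosinophil attractant, had 46.5, 34.9 and 35.8 TPM in stimulated libraries, against 0.697 and 1.02 TPM in medium. The steepest falls were in monocyte and macrophage chemokines. Ccl6 had 5.06, 3.98 and 4.41 TPM against 104 and 114 TPM (-4.33 ± 0.095), and Ccl2 had 1.23, 1.08 and 0.627 TPM against 31.3 and 38.1 TPM (-4.18 ± 0.17). Ccl7 (-3.89) and Ccl9 (-3.23) fell in the same way. In these libraries all 15 tested macrophage markers fell as well, with sums of 47.4 to 53.5 TPM after stimulation and 1249 to 1342 TPM in medium and their part in the chemokine falls was not tested.

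Cytokine receptors changed in opposite directions within shared pathways. Of 30 tested, 9 rose, 19 fell and 2 were not called, with a median of -0.78. With scaling 11 rose and 18 fell. Among all tested genes 27.5% rose and 49.0% fell, or 39.7% and 35.8% with scaling. Both chains of the interleukin 12 receptor rose. Il12rb2 had 141, 204 and 222 TPM in stimulated libraries, against 6.05 and 5.03 TPM in medium (4.84 ± 0.19), and Il12rb1 156, 200 and 203 TPM against 8.35 and 10.9 TPM (4.14 ± 0.14). The chains of the interleukin 2 receptor differed. Il2ra had 764, 984 and 969 TPM against 79.4 and 73.9 TPM, and Il2rb rose by 1.76. The common gamma chain gene Il2rg, shared by several cytokine receptors, had 148, 147 and 141 TPM against 135 and 147 TPM. It was not called (0.05 ± 0.062), but was called higher with scaling (0.44).

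Il15ra (1.37) and Il21r (1.22), which use that common chain too, rose, while Il7r, its partner for interleukin 7, had 36.4, 46.1 and 46.3 TPM against 816 and 731 TPM. Il18r1, a chain of the interleukin 18 receptor, had 7.77, 10.2 and 9.59 TPM in stimulated libraries, against 89.7 and 80.5 TPM in medium (-3.08 ± 0.11). Il1rl2 had 1.36, 2.61 and 2 TPM against 26.1 and 23.1 TPM (-3.12 ± 0.18). Genes of the receptors for interleukin 12 and interleukin 18, cytokines that act together on type 1 cells, thus moved in opposite directions. Il4ra was not called (0.18) and rose without stimulated replicate 1 (0.27) and with scaling (0.57).

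Among JAK, STAT, SOCS and PIM genes 8 rose, 10 fell and 4 were not called of 22. Of all tested genes 27.5% rose and 49.0% fell. With scaling 10 of these 22 rose and 7 fell. Cish, a STAT5 target that restrains receptor signalling, had 270, 319 and 298 TPM in stimulated libraries, against 28.6 and 30.8 TPM in medium (3.27 ± 0.082). Socs1, an inhibitor of JAK kinases, had 133, 100 and 90.5 TPM against 25.8 and 28.6 TPM (1.93 ± 0.14). Stat4, which carries the interleukin 12 signal, had 21.8, 26.2 and 26.8 TPM against 103 and 95.7 TPM (-1.95 ± 0.094) although both receptor chains rose. Jak1 had 256, 366 and 356 TPM against 1044 and 1030 TPM (-1.68), and Jak2 (0.57) and Jak3 (0.43) rose. Stat2, Stat3, Socs3 and Socs7 were not called, but scaling gave Socs3 (0.60) and Socs7 (0.27) as higher.

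Costimulatory genes had no common direction. Of 23 costimulatory genes 10 rose, 10 fell and 3 were not called, with 13 up and 9 down after scaling. Among all tested genes 27.5% rose and 49.0% fell, or 39.7% and 35.8% with scaling. Tnfrsf4, which encodes OX40, had 935, 963 and 1001 TPM in stimulated libraries, against 86.4 and 87.6 TPM in medium (3.46 ± 0.058, adjusted p = 1.36e-08). Tnfrsf8, which encodes CD30, had 52.6, 63.2 and 62.4 TPM against 1.97 and 2.33 TPM (4.26 ± 0.10). Tnfrsf9, the 4-1BB gene, had 449, 431 and 446 TPM against 68.9 and 72.8 TPM (2.63 ± 0.057), and Cd69 504, 473 and 462 TPM against 52.7 and 57.1 TPM. Other genes of the TNF receptor superfamily, chosen after their values were seen, fell, among them Tnfrsf26 (-2.11), Tnfrsf1b (-1.28), Tnfrsf14 (-1.03), Tnfrsf1a (-0.84), Cd27 (-0.78) and Tnfrsf25 (-0.59, not called with scaling). The SLAM family divided: Slamf1 had 72.6, 83.7 and 84.5 TPM against 11.3 and 10.8 TPM (2.75), and Slamf6 had 21.7, 23.7 and 20 TPM against 193 and 174 TPM (-3.02 ± 0.085). Cd44, a common marker of activated cells, was not called (64.8, 77.4 and 71.8 TPM against 68.9 and 66.3 TPM). It was called higher without stimulated replicate 1 (0.14) and with scaling (0.46).

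Inhibitory receptors did not move as a block. Of 19 genes 8 rose, 9 fell and 2 were not called, and with scaling 10 rose and 8 fell. Among all tested genes 27.5% rose and 49.0% fell, or 39.7% and 35.8% with scaling. Lag3, which binds MHC class II, had 406, 416 and 424 TPM in stimulated libraries, against 7.37 and 7.68 TPM in medium. Ctla4 (1.41), Tigit (1.52) and Cd200 (1.94) rose, and Havcr2, the TIM-3 gene, rose by 0.43 but stayed at 4.30 to 5.35 TPM. Cd96, which shares ligands with Tigit, had 9.08, 10.6 and 8.98 TPM against 73.3 and 75.1 TPM (-2.84 ± 0.093). Cd200r1, the receptor of CD200, had 2.44, 2.81 and 2.33 TPM against 27.5 and 27.2 TPM (-3.01 ± 0.094). Pdcd1, the PD-1 gene, chosen after its values were seen, had 13.4, 16.2 and 12.9 TPM against 30.2 and 27.9 TPM (-0.99 ± 0.11). Receptor and ligand of the CD200 pair thus moved in opposite directions, and so did Tigit and Cd96. The groups of each gene did not overlap, but 30.5% of all tested genes lay wholly above medium and 54.0% wholly below.

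Of 21 helper lineage factors 5 rose, 12 fell and 4 were not called, near the split of all tested genes (27.5% raised and 49.0% lowered). With scaling 8 rose and 9 fell, and without stimulated replicate 1, 8 rose and 12 fell. The type 1 factor Tbx21 had 111, 122 and 125 TPM in stimulated libraries, against 5.25 and 4.97 TPM in medium, and the type 2 factor Gata3 176, 215 and 220 TPM against 62.9 and 66.9 TPM (1.63 ± 0.10). Hlx (1.31), a partner of T-bet, Runx3 (0.74) and Eomes (0.24) rose less. Bcl6, the factor of follicular helper cells, had 4.55, 6.52 and 5.88 TPM against 54.9 and 54.3 TPM. Prdm1, its antagonist, was not called (13.8, 21.4 and 17.5 TPM against 16.9 and 15.3 TPM). Prdm1 was called higher without stimulated replicate 1 (0.25) and with scaling (0.47). Foxp3 of regulatory cells had 20.9, 31.9 and 31.5 TPM against 66.1 and 66.5 TPM, and Ikzf2, which encodes Helios, fell by 1.92. Ikzf3 depended on 1 library: it had 193, 468 and 457 TPM against 310 and 303 TPM (0.17, adjusted p = 0.654) and rose without stimulated replicate 1 (0.59).

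Genes of cytotoxic granules, best known from killer cells, mostly rose. Of 13 tested 9 rose, 3 fell and 1 was not called. Gzmb had 1571, 1614 and 1517 TPM in stimulated libraries, against 12.5 and 14.1 TPM in medium. Gzma had 233, 166 and 179 TPM against 11.3 and 10.8 TPM (3.99 ± 0.15), and Gzmc 6.08, 6.18 and 6.64 TPM against 0.530 and 0.750 TPM (2.16). Srgn, the proteoglycan core of granules, reached 2961, 2280 and 2374 TPM against 664 and 682 TPM. Prf1, the pore-forming perforin, rose by 1.49. Gzmk fell to 0.681, 0.513 and 1.07 TPM in stimulated libraries, against 2.86 and 3.77 TPM in medium.

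Most genes of the naive and quiescent T cell fell. Of 27 genes 22 fell, 4 rose and 1 was not called, with a median of -1.54; with scaling 21 fell. Pik3ip1, an inhibitor of PI3 kinase, had 23.8, 25.7 and 22.3 TPM in stimulated libraries, against 452 and 460 TPM in medium (-4.20 ± 0.069, adjusted p = 1.36e-08). Klf2, which keeps T cells quiescent and turns on S1pr1, had 49.3, 53 and 48.9 TPM against 460 and 623 TPM (-3.38 ± 0.15), and Klf3 25.5, 37.1 and 34.3 TPM against 424 and 387 TPM (-3.63 ± 0.14). Tcf7, which encodes TCF-1, had 443, 666 and 623 TPM against 2385 and 2468 TPM (-2.09 ± 0.15). All stimulated libraries lay below both medium libraries in 22 of the 27 genes, as they did in 54.0% of all tested genes.

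The 4 naive genes that rose were Igfbp4, Rgcc, Satb1 and Ccr7. Igfbp4, a binding protein of insulin-like growth factors, had 424, 403 and 380 TPM in stimulated libraries, against 68.5 and 85.6 TPM in medium (2.38 ± 0.096). Ccr7, the lymph node homing receptor, had 481, 428 and 442 TPM against 350 and 361 TPM (0.34), so it did not fall with Klf2 and S1pr1. Of 8 GIMAP genes, small GTPases that keep lymphocytes alive, 7 fell, with or without scaling, and Gimap7 rose (183, 161 and 179 TPM against 122 and 113 TPM; 0.56 ± 0.076). Gimap4 fell most, to 928, 961 and 950 TPM in stimulated libraries, against 2589 and 2517 TPM in medium.

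Most receptors of migration fell. Of 30 tested, 5 rose, 22 fell and 3 were not called, and with scaling 8 rose and 18 fell. Among all tested genes 27.5% rose and 49.0% fell, or 39.7% and 35.8% with scaling. Ccr8, a receptor of skin-homing type 2 and regulatory cells, had 125, 116 and 130 TPM in stimulated libraries, against 3.4 and 3.11 TPM in medium (4.87 ± 0.090). Ccr4 had 128, 134 and 135 TPM against 9.24 and 9.89 TPM (3.66 ± 0.067). Itga4, the integrin chain used to enter inflamed tissue and brain, had 11.8, 24.4 and 23.0 TPM against 410 and 359 TPM (-4.28 ± 0.26). Ccr6 (-3.14) and Ccr9 (-3.11), receptors of mucosal homing, fell to 2.33 TPM or less in every stimulated library. Itgal, the LFA-1 chain, was not called (0.08) and rose without stimulated replicate 1 (0.30) and with scaling (0.47).

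Most genes of glycolysis rose. Of 20 enzymes and transporters 18 rose, 1 fell and 1 was not called, with a median of 2.35. Glucose enters through GLUT1: Slc2a1 had 173, 193 and 193 TPM in stimulated libraries, against 28.8 and 33.9 TPM in medium (2.54 ± 0.089). Hk2, the inducible hexokinase of the first step, had 111, 177 and 179 TPM against 10.3 and 10.8 TPM (3.73 ± 0.19). Pgk1 had 1690, 1462 and 1403 TPM against 120 and 127 TPM, and Gapdh 4736, 4633 and 4663 TPM against 672 and 714 TPM (2.75 ± 0.056). Slc16a3, which exports lactate, had 191, 201 and 200 TPM against 12.3 and 13.1 TPM (3.85 ± 0.075). Ldhb, the lactate dehydrogenase subunit of oxidative tissue, was the 1 that fell (24.2, 24.6 and 27.6 TPM against 36.3 and 36.3 TPM), and it was not called with scaling. Gapdh is often taken as a constant gene, and its groups lay far apart here.

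Targets of the hypoxia factor HIF1 rose with glycolysis, but not all. Of 18 tested 13 rose, 4 fell and 1 was not called. Hif1a had 699, 907 and 925 TPM in stimulated libraries, against 140 and 139 TPM in medium (2.58 ± 0.12). Egln3, the oxygen-sensing hydroxylase that marks HIF for destruction, had 174, 187 and 182 TPM against 3.74 and 3.92 TPM (5.23 ± 0.081), and Ak4, a mitochondrial adenylate kinase, 51.8, 59.2 and 57.4 TPM against 0.394 and 0.866 TPM (5.14 ± 0.15). Bnip3 (3.50) and Vegfa (3.47) rose too. Pdk1, a kinase that inhibits pyruvate dehydrogenase, fell to 116, 139 and 133 TPM in stimulated libraries, against 447 and 413 TPM in medium (-1.73 ± 0.085). Pfkfb4 (-1.16), Kdm3a (-0.95) and Mxi1 (-0.43, not called with scaling) were the others that fell. The core of the hypoxia response element, GCGTG on either strand, lay in the 250 bases before the start and 50 after it in 12 of 15 HIF1 genes with a RefSeq promoter (80%), against 55.5% of all tested genes with one and 60% of those raised. Carriers included the fallen Pdk1, Kdm3a and Pfkfb4, and 12 of 19 glycolysis genes with a promoter held it (63.2%). The HIF1 genes were listed as targets of HIF1, so their share is not independent of the list. The part of HIF1 in these changes was not tested.

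Most amino acid transporters rose. Of 14 transporters 8 rose, 3 fell and 3 were not called. Slc7a5, the large neutral amino acid transporter, had 436, 539 and 528 TPM in stimulated libraries, against 43.4 and 44.5 TPM in medium (3.47 ± 0.096). Slc6a9, a glycine transporter, had 59.5, 70.7 and 70.2 TPM against 2.69 and 2.44 TPM (4.24 ± 0.10). Slc43a2 (-2.73) and the cystine transporter gene Slc7a11 (-2.33) fell. Slc7a11 had 4.60, 7.70 and 6.82 TPM against 35.2 and 35.7 TPM, while Cth, the enzyme that makes cysteine within the cell, had 97.5, 80.3 and 81.4 TPM against 0.901 and 0.496 TPM (5.69 ± 0.16).

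All 24 tested genes of the amino acid response and one-carbon metabolism rose, with a median of 2.62, the highest of any list. All 24 had every stimulated library above every medium library, which 30.5% of all tested genes also had. ATF4 is the transcription factor of this response. Psat1 of serine synthesis had 623, 601 and 597 TPM in stimulated libraries, against 38.4 and 36.3 TPM in medium (3.99 ± 0.060, adjusted p = 1.29e-08). Aldh1l2, a mitochondrial folate enzyme, had 11.8, 19.7 and 18.6 TPM against 0.392 and 0.313 TPM (3.68 ± 0.20), and Eif4ebp1, which restrains translation, 238, 185 and 194 TPM against 13.2 and 16.5 TPM (3.70 ± 0.13). Pycr1 of proline synthesis rose by 3.4. All 20 cytosolic aminoacyl-tRNA synthetases rose as well, by 0.23 (Qars) to 2.40 (Gars), with a median of 1.59. Gars had 446, 470 and 461 TPM against 85.2 and 86.9 TPM.

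Promoters of these genes are shown because the group moved as a whole and because the binding motif of ATF4 with a C/EBP partner is a short, known sequence. The motif searched was TGATGNAAN, on either strand, in 250 bases before to 50 after each transcript start (RefSeq promoters on GRCm38.p6, matched by symbol). It was found in 6 of the 21 amino acid response genes with a promoter (28.6%) and in 5 of 13 tRNA synthetase genes (38.5%), against 2.85% of the 9548 tested genes with a promoter and 3.17% of those raised, and, counted by promoter, in 6 of 24 (25%) and 5 of 13 (38.5%) against 3.95% of all 32851 promoters. Each sequence runs 5′ to 3′ on the strand of its gene, with the motif or its reverse complement in capitals and 20 bases on each side.
Asns (chr6:7693204-7693252, minus strand): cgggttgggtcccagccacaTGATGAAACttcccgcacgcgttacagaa
Pycr1 (chr11:120643823-120643871, minus strand): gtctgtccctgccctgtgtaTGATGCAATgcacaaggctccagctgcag
Chac1 (chr2:119351028-119351076, plus strand): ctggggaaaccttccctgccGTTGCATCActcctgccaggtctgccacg
Nupr1 (chr7:126625553-126625601, minus strand): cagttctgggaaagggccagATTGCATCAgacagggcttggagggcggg
Aars (chr8:111033709-111033757, plus strand): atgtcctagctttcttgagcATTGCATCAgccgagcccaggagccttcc
Tars (chr15:11399646-11399694, minus strand): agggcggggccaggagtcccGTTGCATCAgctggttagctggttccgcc
The motif began 23 bases before the start in Asns, asparagine synthetase, and 194 before it in Chac1, a glutathione-degrading enzyme, where it lies in the opposite orientation. Chac1, Nupr1 and Tars were chosen for their motif. Asns had 239, 231 and 228 TPM against 10.4 and 9.15 TPM, and Chac1 33.9, 30.0 and 28.6 TPM against 2.03 and 2.28 TPM. These are matches of letters and not measured binding. The amino acid response list was drawn up for the ATF4 response, so the share of the ATF4 motif in it is not independent of the list. The part of ATF4 in these rises was not tested.

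Most genes of nucleotide synthesis rose. Of 13 purine genes 12 rose and Prps2 was not called (-0.10, and called lower without stimulated replicate 1, -0.13), and of 16 pyrimidine genes 15 rose and 1 fell. Impdh2, the committed step to guanine nucleotides, had 431, 425 and 425 TPM in stimulated libraries, against 135 and 144 TPM in medium (1.61 ± 0.062). Dctd, the deoxycytidylate deaminase that feeds thymidylate synthesis, had 37.9, 39.4 and 41.1 TPM against 4.92 and 5.26 TPM (2.73 ± 0.079), and Dut rose by 2.16. The gene that fell was Ctps2, with 35.5, 32.1 and 35.2 TPM against 84.5 and 84.5 TPM (-1.28), opposite to its paralogue Ctps (89.8, 95.2 and 93.4 TPM against 21.7 and 20.9 TPM; 2.07). Of 14 polyamine genes 7 rose and 3 fell, and with scaling 10 rose and 1 fell: Odc1 (1.98), Srm (2.45) and Eif5a (2.28), which receives the polyamine-derived hypusine, rose, and Sat1 (-0.70), Oaz2 (-0.36, not called with scaling, as Sat1) and Arg2 (-2.52) fell.

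Of 23 sterol synthesis genes 19 rose, 1 fell and 3 were not called. Sqle, squalene epoxidase, had 42.6, 45.6 and 48.7 TPM in stimulated libraries, against 12.0 and 13.0 TPM in medium (1.79 ± 0.081). Srebf2, the master regulator of these genes, was not called (-0.01) and was called higher without stimulated replicate 1 (0.13). Tm7sf2, a sterol reductase, was the 1 that fell (-1.06). The sterol element TCACNCCAC was found in 1 of 16 genes of the list with a promoter, Hmgcs1 (6.25%, against 1.35% of tested genes).

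Of 14 fatty acid genes 10 rose and 4 fell, also with scaling. Scd2 had 112, 130 and 135 TPM in stimulated libraries, against 13.5 and 12.7 TPM in medium (3.16 ± 0.098), and Scd1, the other main stearoyl-CoA desaturase, had 21.7, 28.2 and 28.4 TPM against 104 and 102 TPM (-1.94 ± 0.11). Scd2 and Scd1 thus moved in opposite directions. Acaca, acetyl-CoA carboxylase, rose by 1.27 ± 0.29, with stimulated replicate 1 (17 TPM) well under replicates 2 and 3 (36.5 and 35.9 TPM) and all above medium (11.1 and 11.1 TPM).

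Nuclear genes of the citric acid cycle, the respiratory chain and the mitochondrial ribosome mostly rose. Of 26 genes of the citric acid cycle and linked enzymes 18 rose, 2 fell and 6 were not called; without stimulated replicate 1 19 rose and 6 fell. Got1, the cytosolic aspartate aminotransferase, had 180, 173 and 181 TPM in stimulated libraries, against 41.0 and 40.8 TPM in medium (2.10 ± 0.070). Idh1, the cytosolic isocitrate dehydrogenase, had 8.31, 7.98 and 6.53 TPM against 38.5 and 39.0 TPM (-2.21 ± 0.11). Of 75 nuclear subunits of the respiratory chain 62 rose and 2 fell (median 0.82), and of 77 mitochondrial ribosomal proteins 68 rose and 1 fell (median 0.83). Cox6a2, a subunit known from heart and muscle, had 41.1, 30.3 and 34.2 TPM against 1.49 and 1.53 TPM (3.84 ± 0.13). Cox7a2l, an assembly factor of respiratory supercomplexes, fell to 208, 161 and 170 TPM in stimulated libraries, against 482 and 519 TPM in medium (-1.48).

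Subunits encoded in the mitochondrial genome had no common direction. Of 10 tested 2 rose, 5 fell and 3 were not called, and with scaling 3 rose and 0 fell. mt-Co1 had 8772, 8689 and 8736 TPM in stimulated libraries, against 12400 and 11698 TPM in medium (-0.46 ± 0.067, not called with scaling). mt-Nd6, the 1 protein gene of the light strand, had 390, 333 and 484 TPM against 90.9 and 92.2 TPM (2.11 ± 0.17). The strand used in counting is not stated, so reads of transcripts from the other strand at mt-Nd6 cannot be told apart. mt-Co2, mt-Co3 and mt-Atp6 were listed at 1.02 to 3.86 TPM in all 5 libraries, far below mt-Co1, and their values are uncertain. The cause was not tested. Carriers of the inner membrane also divided: of 38 SLC25 genes 10 rose and 20 fell, near the 27.5% and 49.0% of all tested genes. With scaling 16 rose and 12 fell. Slc25a13, the aspartate-glutamate carrier, had 12.5, 14.4 and 12.8 TPM against 2.03 and 2.56 TPM (2.12), and Slc25a27, an uncoupling protein, 1.85, 2.84 and 2.32 TPM against 31.5 and 29.5 TPM (-3.25 ± 0.14).

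Most genes of ribosome assembly rose. Of 43 ribosome biogenesis factors 41 rose, 1 fell and 1 was not called, with a median of 1.39. Gar1, of the particle that converts uridine to pseudouridine in ribosomal RNA, had 309, 303 and 311 TPM in stimulated libraries, against 64.5 and 63.5 TPM in medium (2.25 ± 0.056). Npm1, a nucleolar chaperone, had 4635, 3896 and 3898 TPM against 1122 and 1086 TPM (1.90 ± 0.092), and Nop16 rose by 2.07. Wdr12 was the 1 that fell (40.4, 35.5 and 35.8 TPM against 54.9 and 48.8 TPM), and it was not called with scaling. Polr1a, the largest subunit of RNA polymerase I, was not called (48.1, 95.1 and 89.9 TPM against 72.5 and 68.6 TPM) and rose without stimulated replicate 1 (0.39).

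The E-box CACGTG bound by MYC lay in 9 of 38 ribosome biogenesis genes with a promoter (23.7%) and in 3 of 12 purine genes (25%), against 11.9% of tested genes and 12.8% of those raised. Counted by promoter it lay in 9 of 41 (22%) and 3 of 13 (23.1%), against 7.15% of all promoters. Such matches of letters are not measured binding. Nop2 and Imp4, a methyltransferase of ribosomal RNA and a processing factor, were chosen for their motif and are shown as examples with the E-box in capitals.
Nop2 (chr6:125131803-125131848, plus strand): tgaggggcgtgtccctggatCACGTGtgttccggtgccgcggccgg
Imp4 (chr1:34439688-34439733, plus strand): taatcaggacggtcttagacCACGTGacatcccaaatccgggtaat
Nop2 had 134, 163 and 158 TPM against 48.3 and 47.8 TPM (1.63), and Imp4 106, 116 and 119 TPM against 72.9 and 72.7 TPM (0.63).

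Cytosolic ribosomal protein genes mostly rose. Of 80 tested, 58 rose, 2 fell and 20 were not called, with a median of 0.57; with scaling 75 rose and 0 fell, and without stimulated replicate 1, in which these genes were high, 62 rose and 2 fell. Rps2 had 3732, 2846 and 2952 TPM in stimulated libraries, against 1035 and 1120 TPM in medium (1.55 ± 0.11). Rps27 had 685, 383 and 390 TPM against 694 and 799 TPM (-0.67 ± 0.23, not called with scaling), and its relative Rps27l 202, 120 and 129 TPM against 63.7 and 65.1 TPM (1.17 ± 0.20). Processed copies share sequence with many of these genes, and of 725 tested processed pseudogenes 310 rose and 127 fell. Of 53 initiation factor genes 36 rose and 7 fell; with scaling 45 rose and 2 fell. Eif2s2 had 429, 370 and 383 TPM against 96.1 and 95.8 TPM (2.02), whereas the helicase Eif4a2 (-0.72, not called with scaling) and the ER stress kinase Eif2ak3 (-1.49) fell.

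Most chaperone and proteasome genes rose. Of 32 chaperone genes 30 rose, 1 fell and 1 was not called (median 1.28), and of 37 proteasome genes 34 rose and 1 fell (median 1.01). Hsp90ab1 had 7087, 9099 and 9050 TPM in stimulated libraries, against 2092 and 2155 TPM in medium (1.98 ± 0.12), and Hspe1, the mitochondrial co-chaperonin, 503, 404 and 410 TPM against 97.9 and 97.1 TPM (2.15). Xbp1, which expands the endoplasmic reticulum, rose by 1.82, and Dnajc3, a co-chaperone of the endoplasmic reticulum, fell by 0.38, not called with scaling. Among catalytic subunits of the proteasome, the constitutive Psmb7 rose by 1.60, while the inducible Psmb8, chosen after its values were seen, rose by 0.46, Psmb9 was not called (0.19, and called higher without stimulated replicate 1, 0.11) and Psmb10 fell (117, 99.8 and 100 TPM against 135 and 144 TPM; -0.40, not called with scaling).

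Genes that control entry into the cell cycle changed in both directions. Of 20 genes of G1 control 10 rose, 6 fell and 4 were not called, and with scaling 13 rose and 5 fell. Among all tested genes 27.5% rose and 49.0% fell, or 39.7% and 35.8% with scaling. Ccnd2, cyclin D2, had 998, 1488 and 1472 TPM in stimulated libraries, against 251 and 249 TPM in medium (2.37 ± 0.16). E2f1, which turns on replication genes, had 27.4, 28.7 and 29.2 TPM against 4.35 and 4.43 TPM (2.45 ± 0.090), and Ccne2 rose by 2.07. Cdkn1b, the p27 inhibitor of quiescent cells, fell to 65.3, 72.0 and 68.1 TPM in stimulated libraries, against 403 and 373 TPM in medium (-2.49 ± 0.065). The pocket protein genes Rb1 (-1.84) and Rbl2 (-1.63) fell and Cdk2 was not called (0.01).

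Replication genes rose together, 30 of 31, and Gins3 was not called (-0.16). Orc1, of the origin recognition complex, had 28.6, 31.0 and 30.0 TPM in stimulated libraries, against 1.77 and 2.29 TPM in medium (3.35 ± 0.10, adjusted p = 8.02e-08). Cdc6, which loads the helicase, had 19.2, 21.5 and 21.1 TPM against 2.34 and 2.07 TPM (2.75), and Mcm10 25.7, 34 and 31.1 TPM against 3.90 and 3.39 TPM (2.74). Uhrf1, which hands methylation to new DNA, had 106, 147 and 146 TPM against 18.7 and 21.8 TPM (2.64). All stimulated libraries of these 4 genes lay above medium, as they did in 30.5% of all tested genes.

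The site of E2F factors is shown in 5 promoters, chosen for the motif. These are matches of letters and not measured binding, and the part of E2F factors in these rises was not tested. TTTCGCGC, on either strand, lay in 8 of 25 replication genes with a promoter (32%), against 0.806% of tested genes and 1.51% of those raised, and in 8 of their 32 promoters (25%), against 0.323% of all promoters. The related TTTGGCGC lay in 6 of the 25 genes (24%, against 1.16% of tested genes), and in Mcm5 and Mcm6 the 2 motifs overlap. Capitals mark TTTCGCGC or its reverse complement.
Orc1 (chr4:108579407-108579454, plus strand): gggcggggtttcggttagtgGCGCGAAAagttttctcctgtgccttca
Uhrf1 (chr17:56304108-56304155, plus strand): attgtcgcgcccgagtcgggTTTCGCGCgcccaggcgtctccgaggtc
Mcm5 (chr8:75109336-75109383, plus strand): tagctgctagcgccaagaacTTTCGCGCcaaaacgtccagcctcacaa
Mcm6 (chr1:128359784-128359831, minus strand): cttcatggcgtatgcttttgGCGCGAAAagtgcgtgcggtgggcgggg
Rfc3 (chr5:151651191-151651238, minus strand): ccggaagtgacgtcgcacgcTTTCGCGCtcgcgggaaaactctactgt
The site began 27 bases before the start in Orc1, which rose by 3.35, and 10 before it in Rfc3, a clamp loader subunit, which rose by 1.35.

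Most mitotic genes rose. Of 29, 25 rose, 2 fell and 2 were not called (median 1.09). Cdk1, the mitotic kinase, had 30.3, 25.7 and 25.5 TPM in stimulated libraries, against 4.19 and 5.49 TPM in medium (2.27 ± 0.13), and Top2a 108, 138 and 127 TPM against 28.6 and 27.8 TPM (2.10 ± 0.10). Cenpa, the centromeric histone, went against the list with 26.6, 29.4 and 29.1 TPM against 156 and 161 TPM (-2.44 ± 0.082). Kif23 fell by 0.60 and was not called with scaling. Mki67 was decided by 1 library: it was not called (0.39 ± 0.37, adjusted p = 0.356), and without stimulated replicate 1 it rose (0.84, adjusted p = 3.87e-06).

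Genes of p53 and of cell death had no common direction. Of 14 p53 targets 6 rose and 6 fell, with 9 and 3 after scaling; Cdkn1a rose by 1.24 and Trp53inp1 fell by 2.08. Of 31 apoptosis genes 11 rose, 14 fell and 6 were not called, and with scaling 16 rose and 10 fell. Both lists are to be read against all tested genes, of which 27.5% rose and 49.0% fell, or 39.7% and 35.8% with scaling. Casp6, an executioner caspase, had 254, 197 and 207 TPM in stimulated libraries, against 25.8 and 25.9 TPM in medium (3.03 ± 0.11). The survival genes Bcl2l1 (1.74) and Bcl2 (1.18) rose, and Bmf, a BH3-only killer, fell to 3.50, 4.08 and 3.70 TPM in stimulated libraries, against 26.5 and 25.9 TPM in medium (-2.52). Bcl2a1a (-1.79) and Bcl2a1d (0.69) are near-identical copies, and their values are uncertain. Tnfrsf10b, the TRAIL receptor gene, had 7.69, 10.2 and 9.43 TPM against 4.80 and 5.14 TPM, and Tnfsf10, its ligand, 8.15, 9.37 and 8.80 TPM against 20.9 and 20 TPM.

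Interferon-stimulated genes had no common direction. Of 30, 11 rose, 12 fell and 7 were not called (median 0.04), and with scaling 17 rose and 8 fell. Among all tested genes 27.5% rose and 49.0% fell, or 39.7% and 35.8% with scaling. Isg15, a ubiquitin-like modifier, had 95.0, 76.1 and 70.5 TPM in stimulated libraries, against 12.0 and 12.2 TPM in medium (2.62 ± 0.12), and the GTPase Gbp2 1388, 1295 and 1373 TPM against 357 and 348 TPM (1.93 ± 0.057). Ifit2 had 21.8, 33.0 and 26.7 TPM against 158 and 148 TPM (-2.47 ± 0.15), and Ddx58, the RNA sensor RIG-I, 35, 49.0 and 42.8 TPM against 153 and 144 TPM (-1.80). Of 18 chromatin regulators, to be read against the same shares, 4 rose and 7 fell, and with scaling 10 rose and 7 fell. Without stimulated replicate 1, 10 rose and 8 fell, against 30.6% and 50.6% of all tested genes. Tet1 had 0.483, 1.12 and 0.950 TPM against 7.81 and 7.07 TPM (-2.20 ± 0.16), Hdac9 fell by 2.37, and Kmt2a, a long gene, by 2.12 ± 0.41 with 21.7, 66.2 and 61.3 TPM against 205 and 189 TPM.

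Several families held 1 member that rose and 1 that fell. In 8 pairs chosen after their values were seen, the directions were opposite with TPM, with scaling and without stimulated replicate 1. Stat5a, of the 2 STAT5 genes, had 177, 227 and 218 TPM in stimulated libraries, against 57.8 and 60.4 TPM in medium (1.79 ± 0.10), and Stat5b 80.0, 116 and 112 TPM against 194 and 190 TPM (-0.92 ± 0.14). Ezh2, the methyltransferase of dividing cells, had 253, 308 and 296 TPM against 84.2 and 78.0 TPM (1.80), and Ezh1, that of resting cells, 20.3, 29.8 and 26.4 TPM against 103 and 100 TPM (-1.97). Sesn2, the leucine sensor induced by ATF4, had 55.2, 63.1 and 64.6 TPM against 8.07 and 8.36 TPM (2.75), and Sesn1, a p53 target, 13.7, 14.5 and 14.3 TPM against 166 and 151 TPM (-3.4 ± 0.068). The other pairs were Ccnd2 and Ccnd1, Ctps and Ctps2, Scd2 and Scd1, Eif4ebp1 and Eif4ebp2, and Tox2 and Tox, the first of each raised.

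**Figure D4:**
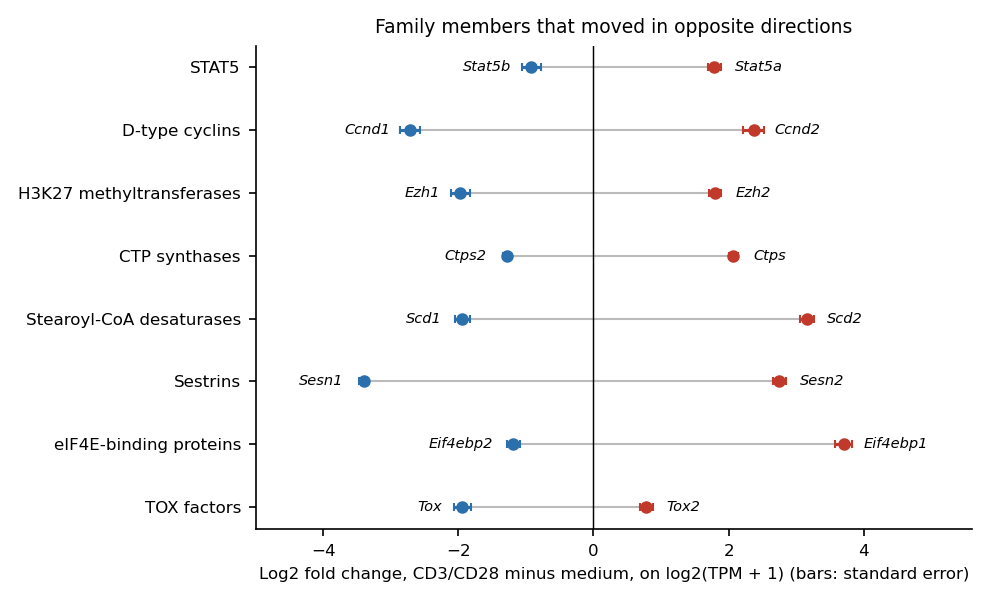
Log2 fold change of CD3/CD28 against medium, on log2(TPM + 1), for 8 pairs of related genes, with the member that rose in red and the one that fell in blue; horizontal bars are standard errors. Members of each pair lie on opposite sides of 0, from Sesn1 at -3.4 to Eif4ebp1 at 3.70; the pairs were chosen for this after their values were seen.

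The genes with the largest changes outside these lists were of mixed kind. Crabp2, a retinoic acid binding protein, had 121, 102 and 104 TPM in stimulated libraries, against 0.403 and 0.532 TPM in medium (6.23 ± 0.11). Tg, the thyroglobulin gene, had 46.7, 37.3 and 38.9 TPM against 0.673 and 0.604 TPM (4.67 ± 0.15), and Akr1c18, a progesterone-metabolising enzyme, 29.6, 25.5 and 25.7 TPM against 0.235 and 0.194 TPM (4.52 ± 0.13). Gm12534, an antisense transcript (chr3:37231333-37232469, plus strand), rose by 6.73, but it lies within Il21 (chr3:37222759-37232636, minus strand) and its reads cannot be told apart from those of Il21 because the counting strand is not stated. Slc28a2b, a nucleoside transporter gene, fell most, to 0.791, 2.39 and 1.13 TPM in stimulated libraries, against 353 and 313 TPM in medium (-7.15 ± 0.23). Other large falls were those of Rapgef4 (-5.46), an exchange factor regulated by cyclic AMP, and St8sia6 (-5.17), a sialyltransferase, beside the macrophage genes Marco (-6.83) and Lyz2 (-6.68) and the B cell genes Fcmr (-5.22) and Fcrla (-4.72). At least 10-fold by mean TPM, 142 called genes were raised and 529 lowered.

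Over all tested genes 49.0% fell and 27.5% rose. Long intergenic RNAs mostly fell (187 of 266, or 70.3%, with 34 raised), with a median of -1.03, or -0.73 with scaling. Antisense RNAs did as well (200 of 318, or 62.9%). Of 291 zinc finger genes with Zfp names 19 rose and 209 fell (median -0.63); with scaling 51 rose and 145 fell. Zfp287 had 4.11, 6.6 and 6.42 TPM in stimulated libraries, against 54.3 and 52.7 TPM in medium (-3.04). Of 88 variable segments of the T cell receptor 5 rose, 37 fell and 46 were not called, with 21 up and 22 down after scaling. Of 178 immunoglobulin variable segments 176 fell and 0 rose, and 172 fell with scaling, beside the falls of all 15 B cell markers (792 to 886 against 4087 to 4111 TPM), whose part in this was not tested. Segments share sequence, so single values of them are uncertain.

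Gene length moved with the result. Among protein-coding genes of the shortest length quartile (up to 1385 bases) 44.4% rose and 35.2% fell, and in the longest quartile (from 3107 bases) 15.9% rose and 60.4% fell. The median log2 fold change passed from 0.15 in the shortest to -0.60 in the longest, and from 0.10 to -0.44 without stimulated replicate 1, whose own long genes were low. The part of length in the rises and falls of the lists was not tested. Expression was also more concentrated after stimulation: the most abundant 456, 602 and 580 genes made up 50% of all TPM in stimulated libraries, against 830 and 798 genes in medium. Genes at or above 1 TPM numbered 12903, 13184 and 13203 in stimulated libraries, against 14277 and 14261 in medium.

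**Figure D5:**
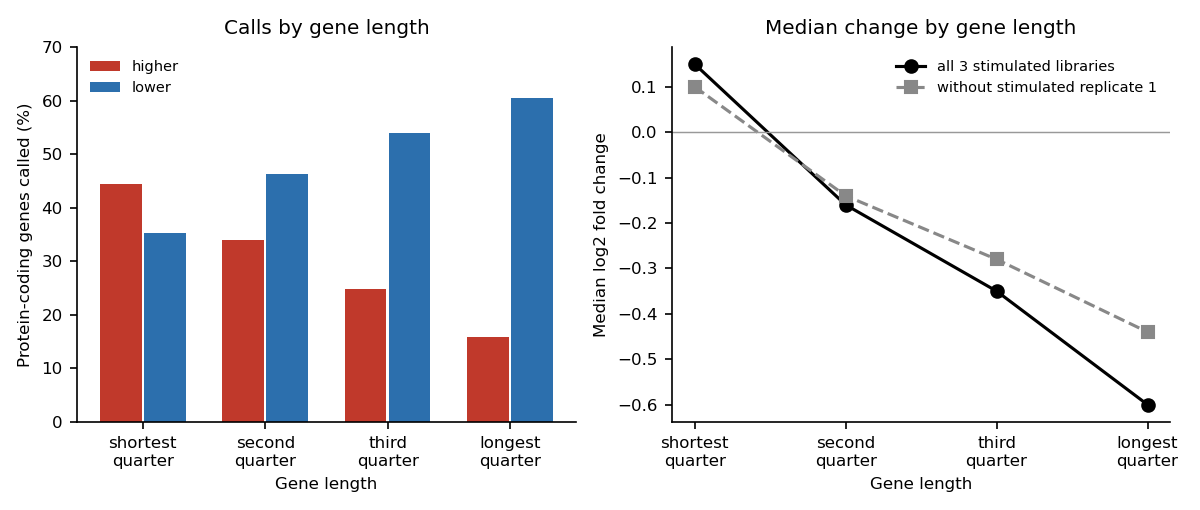
Protein-coding genes by length quartile, from shortest to longest, CD3/CD28 against medium. Left: the % called higher (red) and lower (blue), from 44.4% and 35.2% to 15.9% and 60.4%; right: the median log2 fold change with all 3 stimulated libraries (0.15 to -0.60, solid) and without stimulated replicate 1 (0.10 to -0.44, dashed).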

How the data were processed

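RNA sequencing libraries of cultured CD4 T cells were used as deposited: the gene table holds TPM per library and a gene length in bases, per the file headers. Per the submitters' processing notes the tools were bcl2fastq, Trimmomatic 0.36, HISAT2 2.1.0, SAMtools 1.2, StringTie 2.1.4 and DESeq2 1.26.0, with GRCm38.p6. The authors' own fold changes were not used. TPM times length gave whole reads within 0.001 for 100.0% of values, which gave the depth of 23.0 to 32.3 M reads.

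Genes with a mean of at least 1 TPM over 8 culture libraries were fitted together with limma 3.58.1 (R 4.3.3) on log2(TPM + 1), with a moderated variance trend and 5 residual degrees of freedom. Fold changes are stimulated minus medium and understate changes of low genes. P-values are two-sided with Benjamini-Hochberg adjustment over 14035 genes at 0.05. The script was tested on simulated data. An exact permutation test of 3 against 2 libraries cannot reach 0.05 and was not run. The members and lists were chosen with earlier results of these data known. Genes named were the 20 largest rises and falls, up to 6 called and 4 not called members of each list, members called against most of their list, and a fixed set of immune genes. Others are said to be chosen after their values were seen or for a motif, or are the family pairs, Lta, Retnlg and Qars. Promoters (250 bases before to 50 after a start) came from RefSeq and matched 9548 tested genes by symbol. Alternatives were the pseudocount, the filter, median-of-ratios scaling, fewer libraries, the moderation, a replicate block and leaving out each library. Some genes that this rule names are not reported here.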

Additional observations from a re-analysis of the deposited data

How the results depend on the processing

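Over the 14 alternatives run other than scaling, no called gene named here changed direction. Srebf2, not called with all libraries (-0.01), lay between -0.08 and 0.13 when 1 library was left out and was called higher at 0.13 without stimulated replicate 1. Other genes near 0 that were not called changed sign without being called. Leaving out 1 library gave 9330 to 11392 called genes, 3366 to 4296 higher, 5964 to 7096 lower, 4729 to 5367 by at least 2-fold, and 1383 to 1581 called list members. With a pseudocount of 5, genes called by at least 2-fold numbered 3201, against 5100 with a pseudocount of 1. Scaling by the median of ratios gave 5574 higher and 5029 lower genes, and 50 genes called lower became higher. That scaling turned the log2 fold change of Lck to 0.17, Dnajc3 to 0.01, Oaz2 to 0.03, and, of genes not called, Birc3 to 0.20, Cd247 to 0.28, Prps2 to 0.29, Relb to 0.33, Socs7 to 0.27, Srebf2 to 0.39 and Tnfaip3 to 0.38. Scaling without stimulated replicate 1, chosen after seeing the data, gave 5982 higher genes, with Lck at 0.13, Dnajc3 at 0.01, Birc3 at 0.24, Prps2 at 0.21, Relb at 0.25, Socs7 at 0.36, Srebf2 at 0.47, Stat2 at 0.37, Stat3 at 0.37 and Tnfaip3 at 0.45. Scaling changes the total that a gene is set against, and the cause of single changes was not tested. The labels do not say whether the replicate numbers pair the libraries. Deviations of same-numbered libraries from their group means correlated at -0.134 to 0.078. With 2 medium libraries, whose deviations mirror each other, and stimulated replicate 1 apart from its group, these values cannot decide it. A replicate block gave 3655 higher and 6634 lower genes by the titles and 3667 and 6745 by the bracketed names. Low genes and small falls are the least firm.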
